A study of Mus musculus with 26 samples.

Results

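The proteasome genes described here are the 50 protein-coding genes whose symbol begins with Psma, Psmb, Psmc, Psmd, Psme, Psmf or Psmg followed by a digit, out of 55401 genes in the count table. A further 4 annotated symbols fit that pattern but belong to non-coding pseudogenes and were left out. RNA was sequenced from mouse MII oocytes, which are unfertilised eggs halted in the second meiotic division, and from 1-cell embryos made by in vitro fertilisation. The labels fall into 2 numbered series, one with a c-Myc inhibitor and its controls, the other with oocytes, alpha-amanitin and its controls. Of the 50 genes, 49 encode proteasome subunits, activators, an inhibitor or assembly chaperones. Psmc3ip, a meiotic recombination factor named after the subunit Psmc3 to which it binds, is matched by its name only.

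The oocyte group (n = 4 libraries, labelled 0 h) came from B6D2F1 females, and the 4 embryo groups came from B6D2F1 eggs and sperm (strain B6D2F1xB6D2F1 (F2)) and are all labelled 10 h. The egg donors were superovulated at 8 weeks of age. In the first series, 7 control libraries stand against 7 libraries of embryos given 10058-F4 from 2 h after sperm and eggs were mixed, for 10 h, at a dose not given in the sources used here. This compound keeps the transcription factor c-Myc from pairing with its partner Max. In the second series, 4 control libraries stand against 4 of embryos kept in 100 µg/ml alpha-amanitin, a toxin that blocks RNA polymerase II, from 1 h after mixing, for 10 h. The inhibitor times thus add up to a later age than the label gives. No label ties a library to a donor or a batch, so each p-value measures the spread between libraries, which may in part be technical. The labels give single cells as the library source and say that material was lysed directly. Levels are CPM, a gene's counts relative to the library total, so a change in the total RNA of an embryo cannot be told apart from a change in a gene's own RNA.

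The proteasome is the protease that degrades proteins tagged with ubiquitin. Its 20S core is a barrel of outer alpha rings and inner beta rings, with the catalytic sites on Psmb5, Psmb6 and Psmb7, and its 19S cap recognises, unfolds and feeds in the substrate through a base of ATPases and a lid that removes ubiquitin. Other caps can replace the 19S particle: Psme1 and Psme2 form the interferon-inducible activator PA28 alpha-beta, Psme3 forms the nuclear activator PA28 gamma and Psme4 is PA200. In the egg and early embryo, where stored maternal proteins are replaced, ubiquitin-dependent degradation is needed for exit from meiosis and for early development.

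The stretches upstream of the RefSeq transcription start are shown for Psme3, the gene called in both main comparisons, for Psmd4, which changed places with it in the order of levels, for Psmb5, a catalytic subunit that was nearly undetected, and for Psmd9, the one gene of the set whose window held both motifs searched. Capitals mark CACGTG, the E-box to which pairs of Myc and Max are known to bind, and TGACNNNGC, the core of the antioxidant response element, to which the proteasome gene regulator Nfe2l1 is known to bind. Both strands were searched, and each sequence reads 5′ to 3′ on the strand of its gene (GRCm38.p6), from 250 bases upstream to the first annotated exon.
Psme3, chr11:101315963-101316212, plus strand: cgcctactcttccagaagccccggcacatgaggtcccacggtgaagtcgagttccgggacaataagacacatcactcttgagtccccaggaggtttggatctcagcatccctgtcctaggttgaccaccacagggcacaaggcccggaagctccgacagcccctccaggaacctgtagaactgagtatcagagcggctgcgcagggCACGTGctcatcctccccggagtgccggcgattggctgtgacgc
Psmd4, chr3:95042615-95042864, minus strand: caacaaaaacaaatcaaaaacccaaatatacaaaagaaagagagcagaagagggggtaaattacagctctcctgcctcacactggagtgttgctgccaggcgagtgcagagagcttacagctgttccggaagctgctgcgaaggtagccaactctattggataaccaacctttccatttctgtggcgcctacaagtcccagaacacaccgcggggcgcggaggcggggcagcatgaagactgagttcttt
Psmb5, chr14:54618023-54618245, minus strand: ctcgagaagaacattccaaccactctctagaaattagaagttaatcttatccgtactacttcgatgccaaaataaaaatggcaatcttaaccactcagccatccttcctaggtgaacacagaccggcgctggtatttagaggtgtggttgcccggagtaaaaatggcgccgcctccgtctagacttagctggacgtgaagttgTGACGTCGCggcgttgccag
Psmd9, chr5:123227940-123228189, plus strand: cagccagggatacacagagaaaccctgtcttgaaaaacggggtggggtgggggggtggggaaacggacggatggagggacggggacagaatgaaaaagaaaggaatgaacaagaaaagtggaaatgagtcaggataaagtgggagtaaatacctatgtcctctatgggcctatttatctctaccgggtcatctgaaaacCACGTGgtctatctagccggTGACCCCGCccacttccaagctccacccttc
The E-box letters began 44 bases before the start of Psme3 and 51 before that of Psmd9. Of the 42 genes of the set with a window in the table, 4 held CACGTG (9.52%; Psma4, Psmb10, Psmd9 and Psme3), against 6.86% of 27025 genes with windows of the same length. TGACNNNGC stood in 5 of the 42 (11.9%; Psmb5, Psmb6, Psmc6, Psmd12 and Psmd9), against 11.5% of all genes. Both shares were thus near those of all genes, and the windows of Psmd4 and Psmb5 held no CACGTG.

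The libraries held 5371602 to 31540627 counts, and 25 of the 26 held at least 15155120. The proteasome genes together took between 0.308% and 0.406% of a library's counts. Alpha-amanitin replicate 3 was the library with 5371602 counts, and 16 of the 50 genes had no count in it, against 5 to 12 in the other libraries. Alpha-amanitin replicates 1 and 3 also held 12200 and 11651 CPM in genes that had no count in any oocyte, against at most 5033 in the others. Of the markers of oocytes, all 12 had counts in each oocyte library, and their summed level was 10108 to 10967 CPM there. It was 5206 to 7121 CPM in the controls of the first series, 8313 to 9901 with the c-Myc inhibitor, 5595 to 6568 in the controls of the second series and 5456 to 7773 with alpha-amanitin. Markers of cumulus and granulosa cells (12 genes) summed to 113 to 304 CPM over the 26 libraries, and 8 sperm markers to at most 22.3 CPM. Most of the cumulus and granulosa sum came from Serpine2, with group means of 130 to 215 CPM. Depending on the group, 1 to 6 of these 12 genes had no count in any of its libraries.

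Nearly all genes of the constitutive proteasome were present as RNA in the egg and in every embryo group, while its immune and tissue-restricted forms were at or near 0. A mean of at least 100 CPM in each of the 5 groups was found for 7 of the 50 genes, and a mean of at least 10 CPM in each group for 26 more. Means under 1 CPM in every group were found for 7 genes. The plot of level per length shows the classes side by side.

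**Figure D1:**
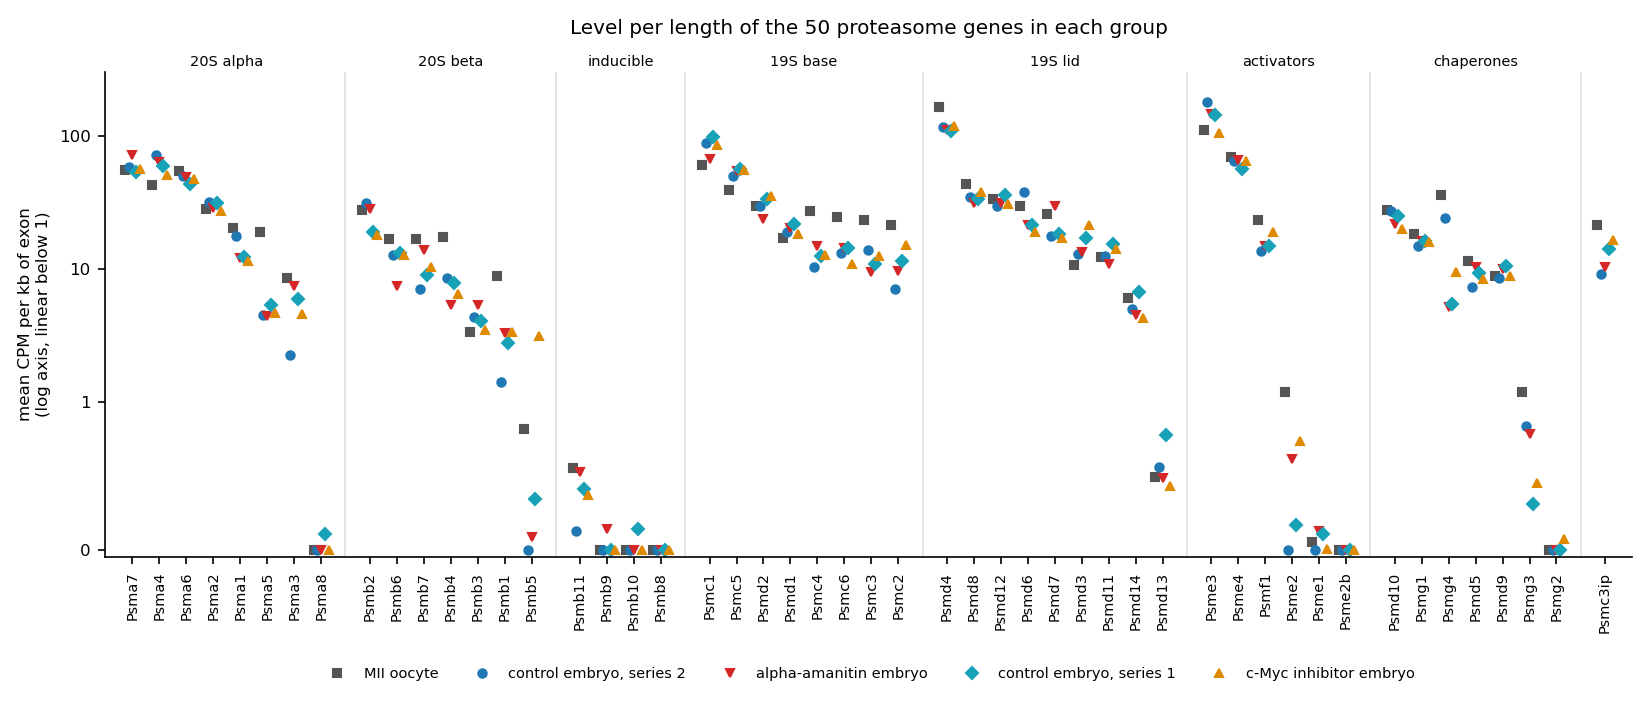
Mean TMM-scaled CPM per kb of annotated exon (log axis, linear below 1) of each of the 50 genes, ordered by class and level, with 1 symbol per group (n = 4 or 7 libraries). Psmd4 and Psme3 stand highest in all groups, and the inducible beta subunits, Psma8, Psme1, Psme2b and Psmg2 lie at or near 0.

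Per kb of exon, a scale on which genes of different length can be compared, Psmd4 and Psme3 led in each group. Psmd4 is a ubiquitin receptor of the 19S particle. In oocytes Psmd4 stood at 164 ± 25.5 CPM per kb (SD, n = 4) and Psme3 at 109 ± 9.50, with Psmd4 above Psme3 in 4 of 4 libraries. In the control embryos of both series the order was turned around. Psme3 stood at 142 ± 12.4 and Psmd4 at 107 ± 12.9 in the first series (Psme3 above in 7 of 7 libraries), and at 178 ± 23.5 and 117 ± 39.5 in the second (4 of 4). With alpha-amanitin Psme3 was again above Psmd4 in 4 of 4 libraries, at 145 ± 4.68 against 111 ± 17.5 CPM per kb. With the c-Myc inhibitor Psmd4 was above Psme3 in 6 of 7 libraries, at 118 ± 5.93 against 104 ± 12.8. The mean difference with the inhibitor, 14.7 CPM per kb, was smaller than its SD between libraries (16.7), so there the genes did not differ beyond their spread. By mean, the order of Psmd4 and Psme3 was thus the same in oocytes and c-Myc inhibitor embryos. It was the opposite in the other 3 groups. Psme4, a large activator that caps the core in the nucleus, followed in oocytes at 68.7 ± 6.60 CPM per kb, with next the ATPase Psmc1 at 59.9 ± 8.27 and the alpha subunit Psma7 at 55.3. Psme4 was above Psmc1 in 2 of 4 oocyte libraries and Psmc1 above Psma7 in 3 of 4, so these neighbours did not differ beyond their spread. Their order also depends on the length used: per kb of longest transcript Psma7 (112 CPM) stood above Psme4 (88.7), Psma4 (86.1) and Psmc1 (72.8) in oocytes, while Psmd4 and Psme3 led in each group with both lengths.

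Among the alpha subunits, which form the gate of the core, Psma7, Psma4 and Psma6 were highest in oocytes (55.3, 42.3 and 53.8 CPM per kb) and Psma3 was the lowest of those detected in every library (8.46). Psma8, the form of the alpha ring found in spermatocytes, had counts in 1 of 26 libraries. The constitutive beta subunits were lower as a class. Their summed level in oocytes, not divided by length, was 204 ± 36.8 CPM against 557 ± 60.3 CPM for the alpha subunits. The lowest with counts in every oocyte library was Psmb3, at 3.37 CPM per kb, and the highest was Psmb2, at 27.8. Of the catalytic subunits, Psmb6 (caspase-like site) was at 31.2 ± 13.2 CPM in oocytes, 24.6 ± 3.72 and 23.6 ± 18.7 in the controls of the first and second series, 23.9 ± 6.26 with the c-Myc inhibitor and 13.9 ± 9.96 with alpha-amanitin. Psmb7 (trypsin-like site) was at 56.9 ± 11.3 CPM in oocytes and 24.0 to 46.9 CPM on average in the embryo groups. Psmb5 (chymotrypsin-like site) had group means of 0 to 2.79 CPM. The catalytic subunits are present in equal number in the assembled core, while per kb their RNA stood in oocytes at 16.7 (Psmb6), 16.6 (Psmb7) and 0.814 CPM (Psmb5). Per kb of longest transcript Psmb6 stood at 32.3 and Psmb7 at 19.97 CPM.

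How reads were counted matters for Psmb5. Of the 50-base windows of its transcripts, 54.1% also occur in transcripts of other genes, mainly in the processed pseudogene Gm3375 (46.8%). A read that lies wholly within such a window cannot be placed on 1 gene, while a read that reaches past it may be. Gm3375 itself had group means of 0 to 0.867 CPM, apart from the controls of the second series, where 1 library at 29.0 CPM gave a mean of 7.27. The sources used here do not say whether reads that fit both were discarded. Psma5 is placed similarly, with 659 of 1319 windows shared, and its level was 24.7 ± 9.43 CPM in oocytes and 5.82 to 7.02 CPM on average in the embryo groups. Psme3, Psmd4, Psme4, Psmd6 and Psmf1 share no such window.

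The inducible beta subunits Psmb8, Psmb9 and Psmb10, which replace the catalytic subunits in the immunoproteasome, had counts in 0, 2 and 3 of the 26 libraries, with at most 31 counts in any of them. Psmb11, the thymic form, had counts in 23 libraries at group means of 0.615 to 2.65 CPM. The activator PA28 alpha-beta was nearly absent too. Psme1 had counts in 5 libraries and Psme2 in 15, with group means of Psme2 of 0 to 2.09 CPM, and its copy Psme2b had none, though 69.3% of its windows are shared, nearly all with Psme2. A count of 0 allows up to 3 counts, which is 0.0951 to 0.558 CPM depending on the library. The floor covers counting error only.

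The 19S base genes summed to 726 ± 62.0 CPM in oocytes and the lid genes with the ubiquitin receptor gene Psmd4 to 970 ± 77.6. The ATPase Psmc1 was the highest base gene per kb in every group, and Psmd13, a lid subunit, the lowest lid gene, with group means of 1.46 to 2.62 CPM. These class sums and the shares that follow are of CPM not divided by length, so longer transcripts weigh more in them. Psme4, for example, was at 576 CPM in oocytes but at 68.7 CPM per kb. Activators and their inhibitor made up 27.9% of the summed proteasome level in oocytes, and Psme3 and Psme4 alone 23.8 ± 2.79%. In control embryos of the second series these last 2 genes made up 30.4 ± 3.18% (SD, n = 4), in those of the first series 26.1 ± 1.46% (n = 7), with the c-Myc inhibitor 25.4 ± 1.04% (n = 7) and with alpha-amanitin 29.0 ± 7.82% (n = 4). Among the chaperones that assemble the particle, Psmd10 was the highest per kb of exon union in the 4 embryo groups and Psmg4 in oocytes. Per kb of longest transcript Psmd9 led in 3 of the embryo groups, at 28.6 against 25.4 for Psmd10 in the controls of the first series, 27.6 against 22.3 with alpha-amanitin and 24.1 against 20.3 with the c-Myc inhibitor. Psmd9 shares 24.7% of its 50-base windows with the antisense gene Gm26745, while Psmd10 shares no window, so the level of Psmd9 is less certain. Psmg2, which works as a pair with Psmg1, had counts in 2 libraries although no window of it is shared, while Psmg1 had group means of 19.8 to 24.4 CPM. Psmc3ip was at 38.8 ± 10.5 CPM in oocytes and 16.5 to 29.7 CPM on average in embryos.

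**Figure D2:**
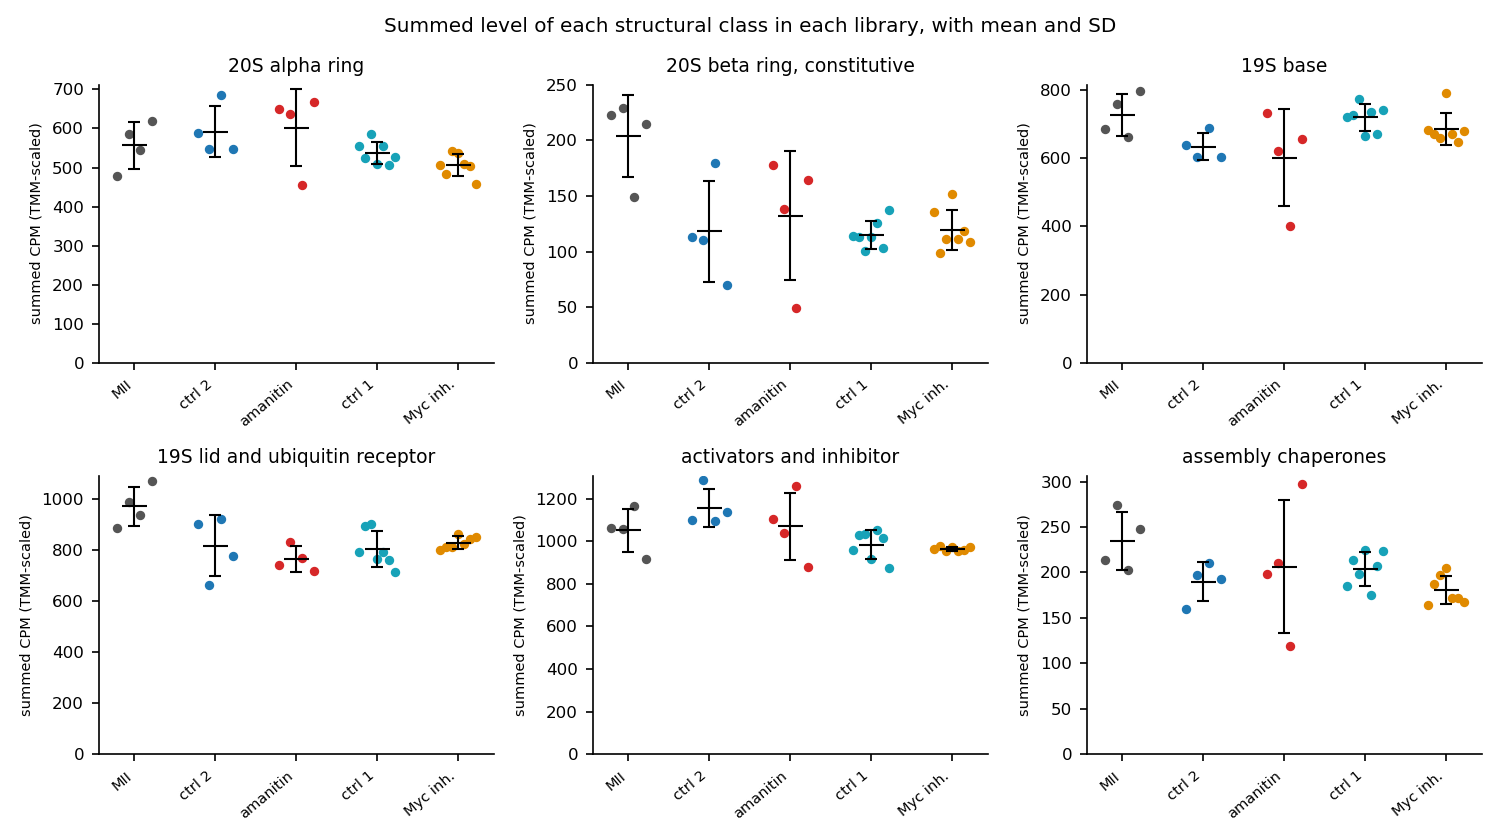
Summed TMM-scaled CPM of the genes of each class in each library (points), with mean and SD (black), for MII oocytes, controls of series 2, alpha-amanitin, controls of series 1 and c-Myc inhibitor. The constitutive beta subunits sum to 149 to 229 CPM in oocytes, and the lowest alpha-amanitin point in the alpha, beta, base and chaperone panels is the library with the fewest counts.

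Embryos given the c-Myc inhibitor were compared with controls of the same series to see which genes differ with the treatment. Whether a difference depends on c-Myc itself was not tested. The activator gene Psme3 was lower, the lid gene Psmd3 was higher, and the catalytic subunit gene Psmb5 was higher at a level close to 0. These were 3 of the 42 proteasome genes that passed the filter on low counts, while 10.9% of all 13003 genes tested were called (6.82% higher and 4.08% lower). The share of the proteasome genes was thus not above that of all genes. Psme3 was at 377, 406 and 481 CPM (lowest, median and highest of 7 controls) and at 258, 313 and 375 CPM with the inhibitor. All 7 treated libraries lay below all 7 controls, and the log2 fold change was -0.44 (SE 0.08, edgeR quasi-likelihood test, adjusted p = 0.000631). Psmd3, a scaffold subunit of the lid, was at 71.4, 86.8 and 92.5 CPM in controls and 98.5, 104 and 116 CPM with the inhibitor. Again the groups did not overlap, and the log2 fold change was 0.35 (SE 0.09, edgeR adjusted p = 0.0145). The exons of Psmd3 overlap the antisense gene Gm12356, and the strand setting of the counting is unknown. Of its 50-base windows, 0.594% also occur in other genes. In 1 fit of all 5 groups Psmd3 was not called (adjusted p = 0.828) and Psme3 was. Only these 2 of 42 genes (4.76%) had ranges that did not overlap, against 3.9% of all genes tested (2.71% higher and 1.18% lower).

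Psmb5 was at 0, 0.217 and 0.776 CPM in controls and 0.137, 2.54 and 5.90 CPM with the inhibitor. The ranges overlapped, and 2 controls had no count. Its fitted log2 difference, 3.15 with an SE of 1.00 (edgeR adjusted p = 0.0438), was no longer called in 12 of the 14 fits that left out 1 library. Next in order, and not called, came the ATPase gene Psmc2 at 0.41 (SE 0.14, edgeR adjusted p = 0.0512), the inhibitor subunit gene Psmf1 at 0.36 (SE 0.12, 0.0616), Psme4 at 0.21 (SE 0.07, 0.0666) and the deubiquitinase gene Psmd14 at -0.64 (SE 0.23, 0.0845). Psme3 and Psme4, both nuclear activators, thus had differences of opposite sign, of which only that of Psme3 was called. Over the 42 genes, 17 values lay above 0 and 25 below, with a median of -0.07 on the log2 scale beside -0.000489 over all genes. By class, the median was -0.18 for 7 alpha ring genes, of which 5 were below 0, 0.01 for 8 base genes and 0.21 for the 3 activator and inhibitor genes tested (Psme3, Psme4 and Psmf1). In the same libraries, the summed oocyte markers differed between the groups (values above), and 6 of 12 of them were called higher. Their part in the values of Psme3 and Psmd3 was not tested.

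**Figure D3:**
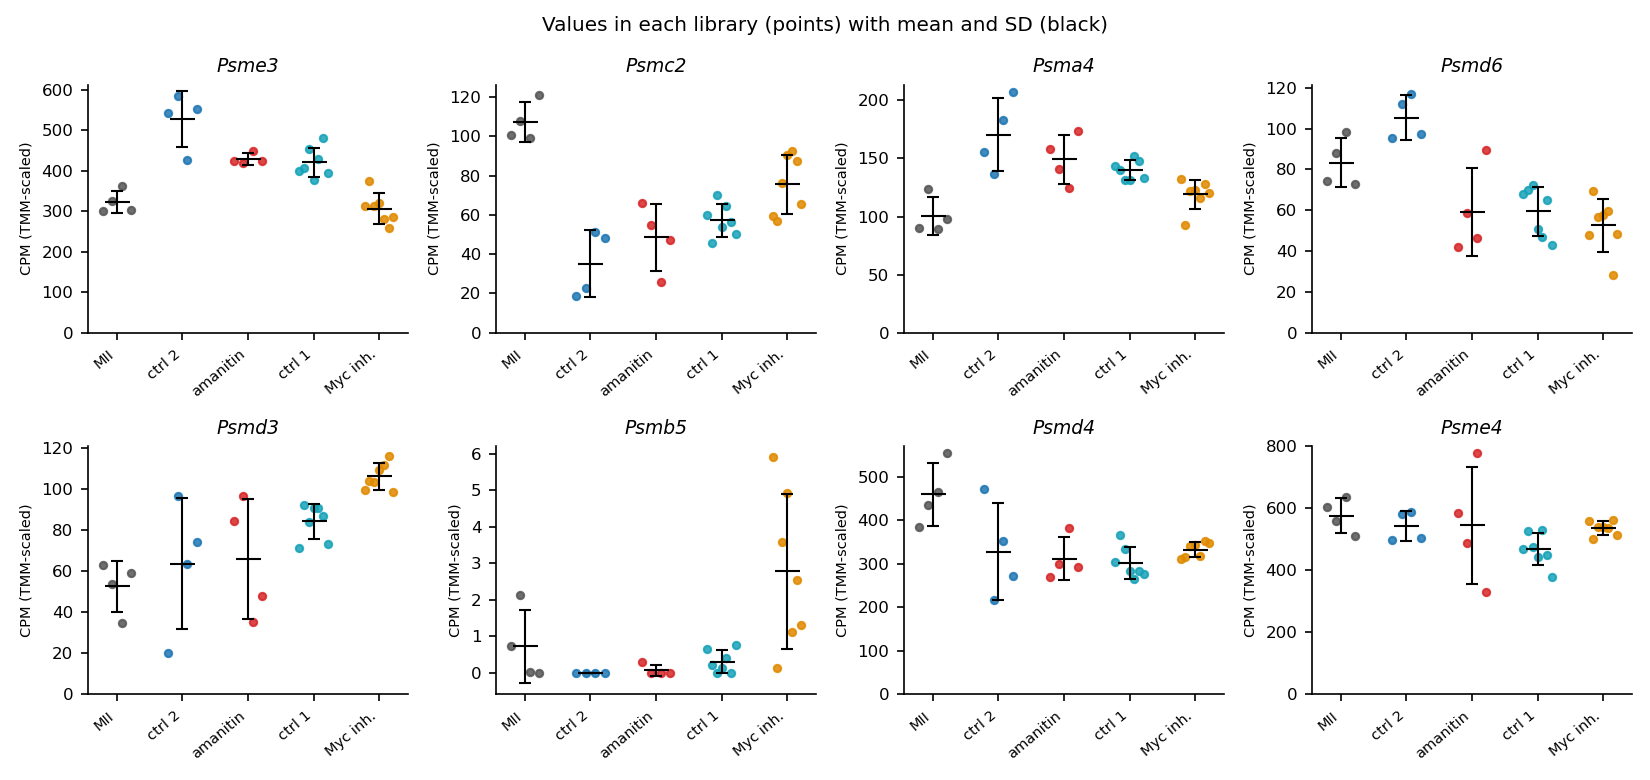
TMM-scaled CPM of 8 proteasome genes in each of the 26 libraries (points) with the mean and SD of each group (black), for MII oocytes, controls of series 2 (ctrl 2), alpha-amanitin, controls of series 1 (ctrl 1) and c-Myc inhibitor. Psme3 lies at 258 to 375 CPM with the c-Myc inhibitor and 377 to 481 CPM in its controls, and Psmc2 at 99.1 to 121 CPM in oocytes and 18.5 to 51.4 CPM in the controls of series 2.

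Control embryos of the second series were compared with oocytes to see how the stored RNA of these genes differs after fertilisation. Psme3 was higher in the embryo and Psmc2 lower, and no other proteasome gene was called. These were 2 of 42 genes tested, where 2.89% of all 13133 genes tested were called (1.11% higher and 1.78% lower). In oocytes Psme3 was at 301, 326, 361 and 303 CPM, and in control embryos at 542, 584, 426 and 553. The lowest embryo lay above the highest oocyte, and the log2 fold change was 0.69 (SE 0.14, edgeR adjusted p = 0.00764). Psmc2, one of the 6 ATPases of the base, was at 100.8, 108, 99.1 and 121 CPM in oocytes and 18.5, 22.7, 51.4 and 48.1 CPM in control embryos. All embryos were below all oocytes, with a log2 difference of -1.62 (standard error 0.39, edgeR adjusted p = 0.0234). The call on Psmc2 was lost when any 1 of the 4 oocyte libraries or control replicate 1 or 2 was left out, with adjusted p up to 0.0945 and log2 fold changes of -1.87 to -1.40.

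Next in order of p was the alpha subunit gene Psma4, at 90.3, 124, 89.3 and 97.9 CPM in oocytes and 156, 136, 183 and 208 CPM in control embryos. Its groups did not overlap, but it was not called (log2 fold change 0.76, SE 0.21, edgeR adjusted p = 0.0648). It was called in 6 of 21 alternatives, among them DESeq2, limma voom and the fit of all 5 groups, with adjusted p from 0.00133 to 0.22 over all 21. Its exons overlap the antisense gene AY074887, and the strand setting of the counting is unknown from the sources used here. Ranges that did not overlap were found for 11 of the 42 genes (26.2%; 14.4% of all genes tested, 5.1% higher and 9.34% lower): Psma4, Psmc1 and Psme3 higher in the embryo, and Psma3, Psmb1, Psmb7, Psmc2, Psmc3ip, Psmc4, Psmc6 and Psme2 lower. Base ATPases thus stood in both directions, Psmc1 at 94.6 to 130 CPM in oocytes and 162 to 181 in embryos, Psmc6 at 76.8 to 94.8 and 27.1 to 57.6. The core subunit gene Psmb1 was at 36.1, 58.7, 34.6 and 31.1 CPM in oocytes and 0, 4.36, 10.0 and 11.4 CPM in embryos. It was not called (log2 fold change -2.64, SE 1.05, edgeR adjusted p = 0.214). Over the 42 genes, 13 values lay above 0 and 29 below, with a median of -0.31 beside -0.03 over all genes. All 6 assembly chaperone genes tested were below 0 (median -0.41) and none was called. Of the 12 oocyte markers, 6 were called lower in these embryos, and their part in the values of Psme3 and Psmc2 was not tested. The summed level of the 50 genes averaged 3878 CPM of raw library totals in oocytes and 3487 in these embryos, and 3784 ± 169 and 3522 ± 202 CPM (SD, n = 4) after TMM scaling.

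**Figure D4:**
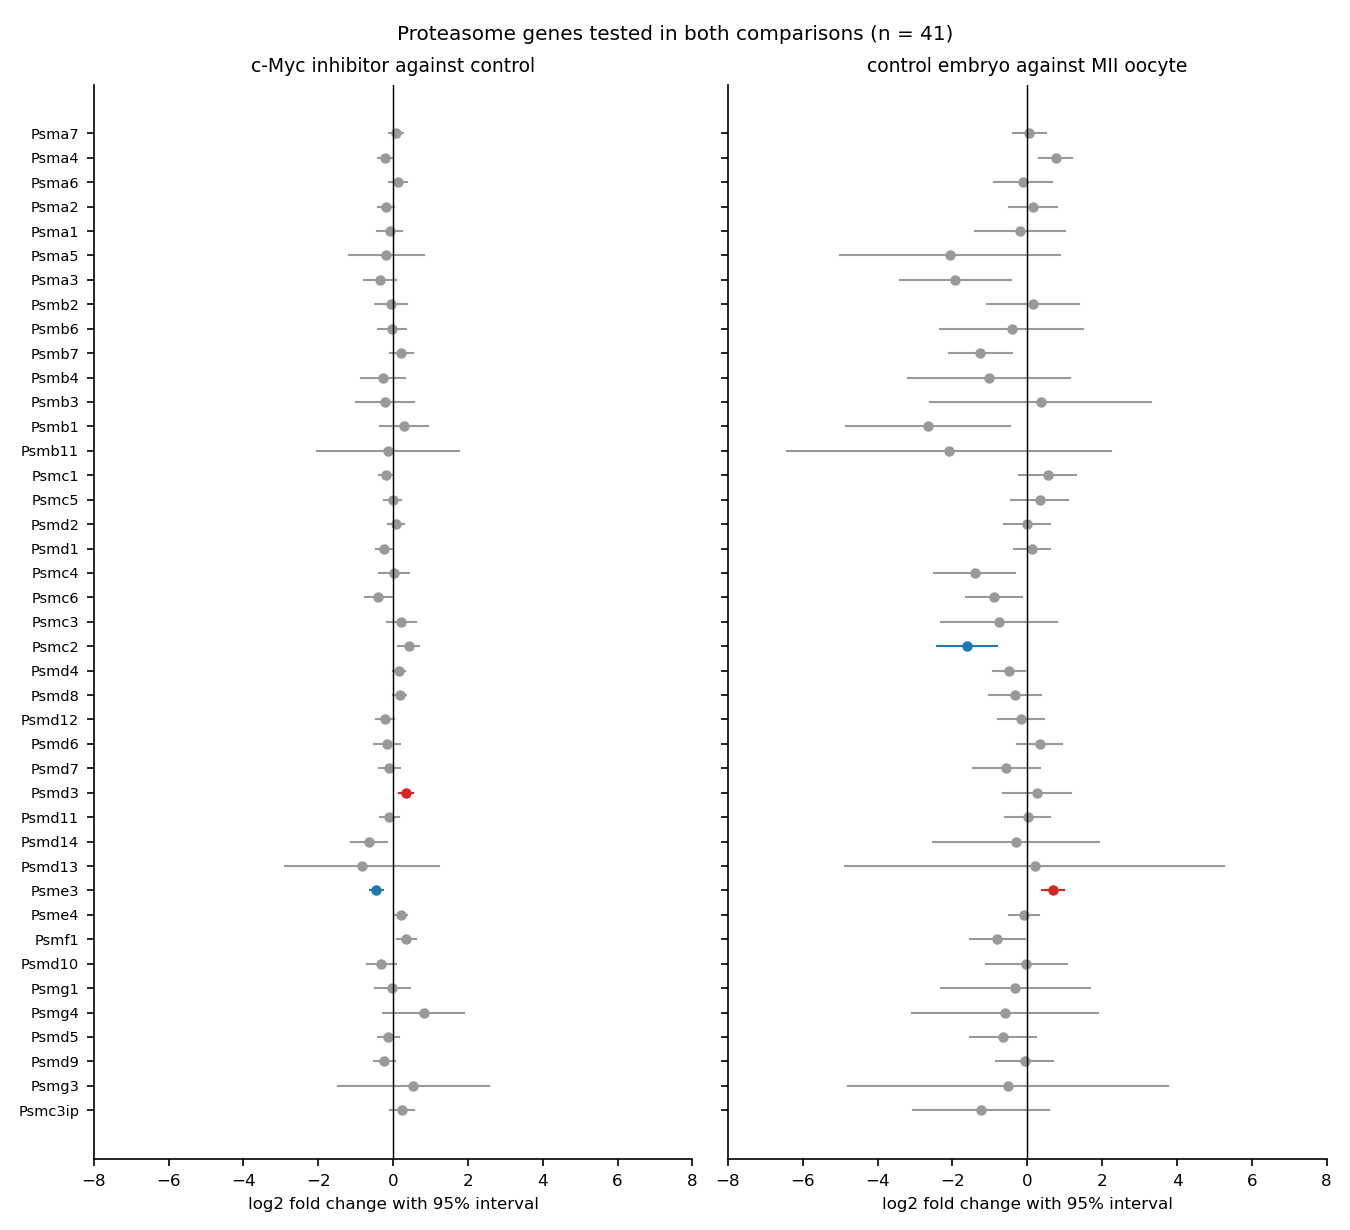
Log2 fold change with 95% interval of the 41 proteasome genes tested in both comparisons, for the c-Myc inhibitor against its controls (left) and control embryos of series 2 against oocytes (right), with genes called higher in red and lower in blue. Psme3 is the gene called in both, at -0.44 on the left and 0.69 on the right, and the intervals on the right are wider.

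Alpha-amanitin embryos were compared with their controls to find RNA that depends on transcription by RNA polymerase II. No proteasome gene was called by edgeR among 42 tested, where 0.0305% of all 13133 genes were (4 genes, 0.0228% higher and 0.00761% lower). An unadjusted edgeR p under 0.05 was found for 4 of the 42 and for 986 of all 13133 genes. DESeq2 called 1, Psme2, and the share of all genes called by DESeq2 was not set beside it. Smallest in p was the lid gene Psmd6, at 95.2, 112, 117 and 97.3 CPM in controls and 42.2, 58.7, 46.3 and 89.7 CPM with alpha-amanitin. The groups did not overlap, the only such case among the 42 genes (2.38%; 2.79% of all genes, 1.27% higher and 1.52% lower), at a log2 difference of -0.81 (standard error 0.29, edgeR adjusted p = 0.524). Psme2 was at 0 in all 4 controls and in 3 treated libraries and at 4.33 CPM in alpha-amanitin replicate 1, so its value rests on that library. The catalytic subunit gene Psmb7 was at 33.2, 21.7, 25.3 and 15.9 CPM in controls and 66.6, 45.4, 33.1 and 42.5 CPM with alpha-amanitin. Its ranges overlapped slightly (log2 fold change 0.99, SE 0.40, edgeR adjusted p = 0.54). The exons of Psmb7 overlap the antisense gene Nek6, with which it shares 9.3% of its 50-base windows. Psme3 was at 424, 418, 449 and 424 CPM with alpha-amanitin, against 542, 584, 426 and 553 CPM in its controls. The highest treated library lay within the range of the controls, and the log2 fold change was -0.28 (95% interval -0.57 to 0.02). The biological coefficient of variation in this series was 1.12, against 0.555 in the c-Myc inhibitor series.

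Against oocytes, alpha-amanitin embryos had no called proteasome gene by edgeR among 42, where 1.71% of all genes were called (0.442% higher and 1.27% lower). The unadjusted edgeR p was under 0.05 for 6 of the 42 and for 1387 of all 13133 genes. DESeq2 called Psme3, limma voom called Psmc6 and Psmd4, and the fit of all 5 groups called Psma4, Psmc2, Psmd4 and Psme3. The share of all genes called in these alternatives was not set beside them, so they are not a result about proteasome genes in particular. The 3 genes with the smallest p were those that led the comparison of control embryos with the same oocytes, which shares the oocyte libraries. Psme3 was 0.42 higher on the log2 scale (SE 0.14, edgeR adjusted p = 0.188), Psmc2 was at -1.13 (SE 0.38, 0.189) and Psma4 at 0.58 (SE 0.21, 0.243). Psma4 stood at 158, 141, 125 and 173 CPM with alpha-amanitin and Psmc2 at 65.9, 55.0, 25.7 and 47.4 CPM. All 4 treated libraries lay above the oocytes for Psme3 and Psma4 and below them for Psmc2. Groups did not overlap for 7 of 42 genes (16.7%; 11.5% of all genes tested, 3.32% higher and 8.16% lower).

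The effects of both inhibitors, each against its own controls, were compared in 1 fit of 22 embryo libraries. No proteasome gene was called by edgeR among 43 tested, where 1.04% of 15790 genes were called (0.678% higher and 0.367% lower). Only 2 of the 43 had an unadjusted edgeR p under 0.05, against 2728 of all 15790 genes. DESeq2 called Psma3 and Psme2, again without the share of all genes called by DESeq2 beside them. Psma3, an alpha subunit gene, came first, with a c-Myc inhibitor effect minus alpha-amanitin effect of -2.06 (SE 0.66, edgeR adjusted p = 0.105). It was at 12.6, 24.7 and 28.2 CPM (lowest, median and highest) in controls of the first series and 12.8, 15.6 and 24.8 with the c-Myc inhibitor. In the second series it was at 10.9, 4.10, 4.07 and 16.0 CPM in controls and 13.2, 8.97, 61.2 and 31.8 with alpha-amanitin, the highest being the library with the fewest counts. The chaperone gene Psmg4 followed at 2.99 (SE 1.37, edgeR adjusted p = 0.254), with controls of the second series between 0 and 28.0 CPM and alpha-amanitin libraries between 0.919 and 3.69. Psmb7 came next at -0.77 (SE 0.38, edgeR adjusted p = 0.299). For Psme3 the difference was -0.16 (95% interval -0.47 to 0.15, edgeR adjusted p = 0.693), so the test did not show that the inhibitors act differently on it, nor that they act alike.

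Genes that work with the proteasome but lie outside the naming pattern were read from a list of shuttle factors, deubiquitinases, assembly and import factors and transcription factors, 28 of 29 of which were tested. With the c-Myc inhibitor 4 were higher and 4 lower in edgeR, beside 6.82% and 4.08% of all genes. The higher ones were Zfand2a, a stress-induced partner of the 19S particle (log2 fold change 1.30, adjusted p = 5.92e-06), its relative Zfand2b (0.70), the protease Ddi2 (0.55), which cleaves Nfe2l1, and the ubiquitin shuttle Ubqln1 (0.43). The lower ones were Ngly1 (-0.51), which removes sugars from Nfe2l1, the shuttles Ubqln2 (-0.40) and Rad23b (-0.25) and the nuclear import factor of proteasomes Akirin2 (-0.34). Of the ubiquitin genes and activating enzymes tested, Ubb was higher (0.45, edgeR adjusted p = 0.00668), 1 of 5. From oocyte to control embryo, Midn (1.11) and Rad23b (0.62) were higher and Zfand2a (-1.46) and Ubb (-1.02) lower in edgeR, where 1.11% of all genes were called higher and 1.78% lower. Ubb averaged 234 CPM in oocytes and 116 in these controls, but 608 in the control embryos of the first series, so its direction against oocytes differs between the control groups. Alpha-amanitin embryos compared with the same oocytes had Nfe2l1 (0.77) and Midn (0.73) higher and Ube3a (-1.17) and Zfand2a (-1.60) lower (0.442% and 1.27% of all genes), and none of the list was called between alpha-amanitin and control. Ubqln1 and Ddi2 were also called for a difference between the inhibitors' effects, at 0.70 (adjusted p = 0.0168) and 0.78 (adjusted p = 0.0349).

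Spread between libraries differed among the members and among the groups. The median SD of log2(CPM + 1) over the 43 genes kept was 0.25 in the controls of the first series and 0.23 with the c-Myc inhibitor, against 0.61 in the controls of the second series and 0.77 with alpha-amanitin. In oocytes it was 0.28. The least variable gene was Psmd1 in oocytes (SD 0.07), Psma4 in the controls of the first series (0.09), Psme4 with the c-Myc inhibitor (0.06) and Psme3 with alpha-amanitin (0.05). Among genes with 10 to 100 CPM, where depth bears on members and other genes alike, the medians were 0.28 for 25 proteasome genes and 0.31 for 5018 genes in the controls of the first series, and 0.68 for both in alpha-amanitin embryos. In oocytes they were 0.34 and 0.38, and with the c-Myc inhibitor 0.25 and 0.32. In the controls of the second series the proteasome genes had the higher median, 0.70 against 0.64.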

How the data were processed

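Gene counts of 26 libraries were analysed. The deposited values are unnormalised counts, whole numbers for each of 55401 Ensembl genes. The submitters' processing notes name cutadapt 1.7.1, STAR 2.5.0a and the build GRCm38. A stranded total RNA kit for low input was used, per the labels' protocols. Which program counted the reads, on which strand and with which annotation, is not stated there, so genes that share sequence or overlap are uncertain. Symbols (55141 matched) and exons came from GENCODE vM21, and promoter windows from RefSeq.

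The genes and lists were chosen with earlier results of these data known. Groups came from the labels, and no libraries were identical. Counts were tested in R 4.3.3 with edgeR 4.0.16 (quasi-likelihood F test, TMM scaling, filterByExpr with a minimum count of 10 and a minimum total of 15), with Benjamini-Hochberg adjustment over all genes tested and a threshold of 0.05. The c-Myc inhibitor series was fitted with 14 libraries, the second series with 12 and the difference of the inhibitors' effects with 22. Scripts were tested on simulated data. CPM levels used TMM factors over all 26 libraries. Full statistics went to genes called in a comparison and, where fewer than 3 were called, to the 3 with the smallest p. Catalytic and tissue-restricted subunits and activators were always given by level. Other proteasome genes were named after their values were seen. Alternatives were DESeq2 1.42.0, limma 3.58.1 (voom), other scalings, no filter, other sets of libraries, the replicate number as a block, and each library left out in turn. In the main fits replicate numbers were not used to pair libraries across groups. Levels between genes are per kb of the union of exons, and the longest transcript was the alternative.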

Additional observations from a re-analysis of the deposited data

Results flagged for a closer look

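Among 58 sets of 4 or 7 libraries of 1 group, 8 had a library far from the others by Dixon's ratio. The sets covered the 10 genes given in full, the summed level and the number of genes without a count. Chance gives about 1 in 20 only where values are normally distributed, which levels near 0 and small counts are not. Where all other libraries are tied, the ratio is 1 whatever the gap. This was so for oocyte replicate 4 and for both genes in alpha-amanitin replicate 1. Oocyte replicate 4 had 9 of the 50 genes without a count, against 7 in the other oocytes, and control replicate 2 of the first series had 5, against 7 or 8. In alpha-amanitin replicate 1, Psmb5 was at 0.307 CPM and Psme2 at 4.33 CPM, with no count of either in the other alpha-amanitin libraries. Psmg4 was at 0.919 CPM in alpha-amanitin replicate 3, the library with 5371602 counts, and at 3.43 or more in the others. Psme2 was at 1.74 CPM in control replicate 6 of the first series, against at most 0.217. With the c-Myc inhibitor, Psma4 was at 92.9 CPM in replicate 2, against at least 116, and the summed level of the 50 genes was 3552 CPM in replicate 4, against at most 3305.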

How the results depend on the processing

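The number of proteasome genes called was 3 for the c-Myc inhibitor, 2 for control embryo against oocyte and 0 for the other comparisons. DESeq2 called 7 for the c-Myc inhibitor, 1 for alpha-amanitin against control, 5 for control embryo against oocyte, 1 for alpha-amanitin embryo against oocyte and 2 for the difference of the inhibitors' effects. Limma voom called 4 and 2 in the comparisons of control and alpha-amanitin embryos with oocytes. A fit of all 5 groups called 1 for the c-Myc inhibitor and 7 and 4 against oocytes. Control embryo against oocyte gave 5 from those 2 groups alone and 4 without alpha-amanitin replicates 1 and 3, an alternative chosen after seeing the data. The cause of these shifts was not tested. The share of all genes called was not set beside these counts or those of the other alternatives. The counts describe how the calls depend on the processing and are not a result about the proteasome genes in particular. With 1 library left out, the c-Myc inhibitor gave 2 to 5 (5 without inhibitor replicate 2), control embryo against oocyte 1 to 5 (1 without any of the oocyte libraries or control replicate 1 or 2, and 5 without alpha-amanitin replicate 3), and the other comparisons 0. Psme3 kept its call and direction in all 21 alternatives for both of its calls, with log2 fold changes of -0.50 to -0.41 and 0.63 to 0.77. Psmd3 lost its call in 1 of 21 (the fit of all 5 groups), Psmb5 in 16 of 20 and Psmc2 in 6 of 21, and Psma4, not called for control embryo against oocyte, was called in 6 of 21. Under voom the median of all genes moved to -0.31 and -0.23 against oocytes and to -0.11 for the difference of the effects, and under the block to -0.20 in both comparisons with oocytes.

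With the replicate block the counts were 2 for the c-Myc inhibitor (Psmb5 was lost), 2 for control embryo against oocyte and 0 elsewhere. Deviations of libraries with the same number correlated at most at 0.0373, and at most 1 pair in any comparison correlated best with its own number. Such correlations cannot decide whether libraries with the same number shared a donor or batch, and no label says so. The limit that a count of 0 allows was 0.558 CPM in alpha-amanitin replicate 3 and 0.0951 to 0.198 CPM in the other libraries.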

Other observations

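The effect of the c-Myc inhibitor and the difference between control embryo and oocyte rest on separate libraries. Over the 41 proteasome genes tested in both, the log2 fold changes had a Pearson r of -0.25 and a Spearman rho of -0.32, and 25 (61.0%) had opposite signs. Over all 12280 genes tested in both the values were -0.20 and -0.23, with 58.5% of opposite sign. These are descriptions across genes, which are not independent replicates and share the libraries of each comparison, and the proteasome genes stood near all genes.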
